A study of Mus musculus with 4 samples.

Results

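Kit, Flt3, Il7r, Il2ra, Il2rb, Il2rg, Il18r1 and Il1rl1 encode receptor chains through which early blood and T-cell progenitors receive growth, survival and differentiation signals. These 8 genes were taken by symbol from the 31053 genes of the deposited count matrices, in which all of them were found. Their unique molecular identifiers (UMIs, 1 per captured mRNA molecule) were followed per cell and per tagged culture in 2 pooled single-cell experiments.

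Kit, the receptor for stem cell factor, and Flt3 are receptor tyrosine kinases of multipotent progenitors. Flt3 is lost early on the path to T cells, while Kit stays high in the first T-cell stages and falls as cells commit. Il7r and the common gamma chain Il2rg form the interleukin-7 receptor, which keeps thymocyte progenitors alive. Il2ra (CD25) is the surface marker by which the second double-negative stage is recognised, and Il2rb is the signalling chain for interleukins 2 and 15 on natural killer (NK) and some T cells. Il18r1 and Il1rl1 (ST2) are the interleukin-18 and interleukin-33 receptors of the interleukin-1 receptor family, used by innate lymphoid cells and, for Il1rl1, by mast cells and basophils.

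The cells were progenitors from the bone marrow of Bcl2 transgenic mice, aged 8 to 10 weeks where an age was stated, grown on OP9-Dll1. That stromal line displays the Notch ligand Dll1, and the cultures received IL-7 and Flt3-ligand at 10 ng/ml each. Vectors were given on day 2, and sorted live lineage-negative, CD45-positive, reporter-positive cells were stained with 1 hashtag oligo per replicate and pooled in equal numbers. The overexpression groups carried MSCV-Runx1-mCherry or MSCV-empty-mCherry and were harvested on days 4 and 6. The double knockout groups came from B6.Cas9;Bcl2 mice and carried E42-gRunx1 (hNGFR reporter) with E42-gRunx3 (mTurquoise reporter), with 3 guide pairs per gene, or luciferase-targeting control guides in the same 2 vectors, and were harvested on days 5 and 8. All groups therefore shared the Bcl2 transgene, the stroma, both cytokines and a retroviral infection. Per the labels, experiment 1 spanned days 4 to 5 of culture and experiment 2 days 4 to 8.

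The tag tables name their 8 columns by oligo sequence only, so no tag could be tied to a vector, a guide or a harvest day. The 8 tags of each experiment were therefore treated as 8 cultures of unknown condition, numbered in column order, and no condition was compared with another. Whether the same tag number means the same condition in both experiments is not known either. The libraries held 9967 and 10556 barcodes with 246706921 and 296727412 UMIs, of which 8797 and 8335 cells passed the filters and carried 1 tag. A tag held 691 to 1291 cells and 14502385 to 38067298 UMIs in experiment 1, and 855 to 1312 cells and 22272716 to 42684236 UMIs in experiment 2. The 2 libraries shared 39 barcode sequences. Ptprc, which encodes the sorted antigen CD45, was at 170 to 240 and 135 to 192 counts per 1000000 UMIs (CPM) across tags. Tag 4 of experiment 2 stood apart in its cells, 37.1% of which met the marker limits of more than 1 cell class (1.09% to 15.99% in experiment 1, 2.42% to 12.7% in the other tags of experiment 2). The targeted genes varied across tags without labels to set them against: Runx1 had 38.2 to 240.8 CPM in the first and 33.7 to 120.9 CPM in the second experiment, and Runx3 115 to 181 and 74.7 to 145 CPM.

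Because the study perturbed Runx1 and Runx3, promoter windows of the genes were searched for 1 form of the core that Runx factors recognise. This was TGTGGT, or its reverse complement ACCACA. Other forms of the core were not searched, so a window without a match may still hold one. RefSeq windows on GRCm38.p6, each from 250 bases before to 50 after an annotated start, were at hand for 7 of the 8 genes (11 windows). This form of the core was found in 4 windows, 1 each of Il1rl1, Il18r1, Il7r and Il2rg, and in 5506 of all 32851 windows searched (16.8%). The 30 bases around each match are shown 5′ to 3′ on the gene's own strand, with the core in capitals.
Il1rl1: gttaaatatttaTGTGGTaagtttaggaat
Il18r1: acaggtggttctTGTGGTtgagtagacagg
Il7r: tagttccctgtcTGTGGTttagcaggcaca
Il2rg: ggaatgatggtgTGTGGTgggggtgggtgt
With the start counted as 0, the core began at -6 in Il1rl1 (chr1:40439611-40439640, plus strand) and at 21 in Il18r1 (chr1:40465630-40465659, plus strand). It began at 3 in Il7r (chr15:9529856-9529885, minus strand) and at -227 in Il2rg (chrX:101268465-101268494, minus strand). A match describes the letters only, and no binding was measured in these files.

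All 8 genes are protein-coding. On the same RefSeq build, Kit lies at chr5:75574987-75656722 and Flt3 at chr5:147330741-147400489. Il7r lies at chr15:9506159-9529941, Il2ra at chr2:11642792-11693194, Il2rb at chr15:78479256-78511621 and Il2rg at chrX:101264385-101268255. Il1rl1 (chr1:40404864-40465418) and Il18r1 (chr1:40465552-40500854) are neighbours, with 133 bases between them.

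Across tags, 7 of the 8 genes passed limits on low values (a mean of 2 CPM or more, and 10 UMIs or more in every tag). In experiment 1, 5 of these 7 spanned 2-fold or more from the lowest to the highest tag, against 15.2% of the 10106 genes that met the same limits. In experiment 2 it was 6 of 7, against 23.1% of 10416 genes. Counting error widens such a span at low levels, so the share of all genes is also given by level. At a mean of at least 20 CPM the share of all genes was 6.47% in experiment 1, where 1 of 3 receptor genes (Il2ra) spanned 2-fold. It was 11.2% in experiment 2, where 3 of 4 did (Kit, Il7r and Il2ra). Between 2 and 20 CPM the shares of all genes were 25.6% and 34.5%, and all 4 (Flt3, Il7r, Il2rb and Il18r1) and all 3 (Flt3, Il2rb and Il18r1) receptor genes in that range spanned 2-fold. Il1rl1, with means under 1 CPM, was outside this count. Counts come from the 3′ ends of transcripts and are not scaled to length, so levels of different genes were not compared. Intervals are exact 95% intervals that cover counting error only, and each tag is 1 culture, so none of these differences has a replicate check.

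**Figure D1:**
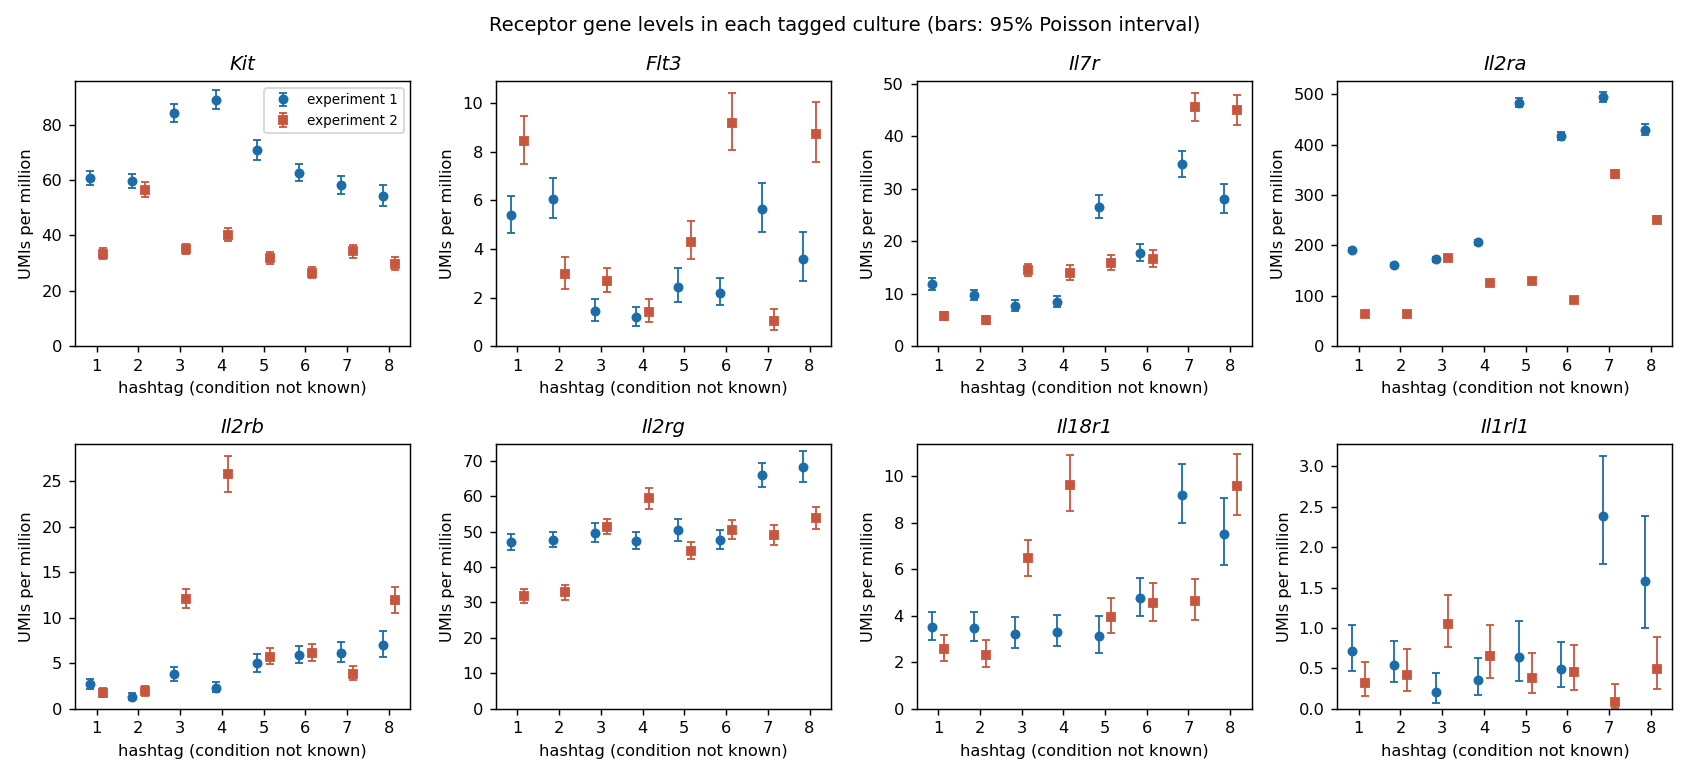
Level of each receptor gene in CPM (y axis, linear, from 0) in each hashtag (x axis) of experiment 1 (blue circles) and experiment 2 (red squares), with 95% Poisson intervals as bars. Il2ra fell into a lower set of 4 tags (161.6 to 206.6 CPM) and a higher set of 4 (417.3 to 495.2 CPM) in experiment 1, and Il2rb stood at 25.7 CPM in tag 4 of experiment 2.

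Kit was lower in nearly every tag of experiment 2 than in experiment 1. In experiment 1 its lowest, median and highest tags had 54.3, 61.7 and 89.0 CPM, and in experiment 2 they had 26.4, 33.8 and 56.5 CPM. The ranges met only where tag 8 of experiment 1, the lowest there, lay below tag 2 of experiment 2, the highest there. None of the 7 receptor genes was lower in every tag of experiment 2 than in every tag of experiment 1, a pattern that 19.1% of 9979 genes showed. Without either of those 2 tags, Kit did show it. None of the 7 was higher in every tag of experiment 2, which 2.23% of genes were.

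Within experiment 1, Kit was highest in tags 4 and 3 (89.0 and 84.1 CPM), and the other 6 tags lay between 54.3 and 70.6 CPM. The ratio of highest to lowest was 1.64 (1.51 to 1.78). In experiment 2 the ratio was 2.14 (1.96 to 2.34), and tag 2 alone carried much of it: the next tag had 40.2 CPM, and without tag 2 the ratio was 1.53. A level summed over a culture does not tell fewer expressing cells from less RNA per cell, so cells were also thinned to 10000 UMIs each and counted as positive with at least 1 UMI. Kit was then seen in 41.3% of 980 cells of tag 2, against 21.2% to 31.1% in the other tags of experiment 2. Its positive cells in tag 2 also had more Kit UMIs, 1.47 on average against 1.22 to 1.34.

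The labels call the cells Kit-high. Without thinning, 71.8% of cells in experiment 1 and 51.9% in experiment 2 had a Kit UMI, and after thinning 47.4% of 8224 and 28.8% of 7746 cells did. Free RNA also gives UMIs to cells that do not express a gene. In experiment 2, 208 thinned cells with stromal markers gave a background share of 12.02% for Kit, at a median of 49920 UMIs per cell before thinning, against 26338 for all tagged cells. Thinning keeps a smaller part of the free RNA of deeper cells, so this background, here and for the other genes, may be too low. It may also be too high. Of the 211 such cells before thinning, 104 met the stromal limits alone, and the rest also met those of another class, defined below. Those cells may hold receptor RNA that is not free RNA, and their part in the shares was not tested. Experiment 1 held 16 such cells, too few for a background.

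Flt3, the second kinase receptor, was seen in few cells. Its lowest, median and highest tags had 1.18, 3.01 and 6.06 CPM in experiment 1 and 1.02, 3.63 and 9.20 CPM in experiment 2. The ratios were 5.13 (3.61 to 7.48) and 9.02 (5.92 to 14.4). In experiment 2, tags 6, 8 and 1 (9.20, 8.76 and 8.46 CPM) stood together above the other 5 tags, which had up to 4.30 CPM. Thinned cells with a Flt3 UMI made up 7.49% to 9.29% of those 3 tags and 1.28% to 4.05% of the others. The stromal-marker background was 5 of 208 cells, 2.40% (0.785% to 5.52%, exact binomial). By share alone, the other 5 tags lay within that interval and were not distinguishable from this background, while tags 6, 8 and 1 lay above it. A share does not show which cells held the UMIs. In every tag Flt3 was seen more often in cells with certain progenitor genes, as given below.

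Kit and Flt3 did not move together over tags. With levels on a log2 scale (1 CPM added) and centred in each experiment, their Pearson correlation over the 16 tags was -0.64. It is a description, since the tags of an experiment share 1 library and differ in depth and cell makeup. The 2 tags with the most Kit in experiment 1, tags 4 and 3, had the least Flt3 (1.18 and 1.45 CPM). Within tags, the median log2 odds ratio of seeing both in a cell was -0.36 in experiment 1 (below 0 in 7 tags) and 0.00 in experiment 2. In cells thinned to 5000 UMIs the value for experiment 1 was -0.06, below 0 in 5 tags.

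Il2ra, the CD25 gene, split the cultures of experiment 1 into 2 sets. There, tags 1 to 4 had 161.6 to 206.6 CPM and tags 5 to 8 had 417.3 to 495.2 CPM, with a 2.02-fold step (1.96 to 2.08) between tags 4 and 6 and steps of 1.13-fold or less between all other neighbours. In experiment 2 it showed no such step, the largest being 1.43-fold, and the levels were spread from 63.3 CPM in tag 1 over a median of 127.1 CPM to 341.4 CPM in tag 7. The ratios of highest to lowest were 3.06 (2.97 to 3.16) and 5.40 (5.15 to 5.66). Of the 7 pairs of neighbours in rank, 2 had intervals that held a ratio of 1 in each experiment, so most of this order exceeded counting error.

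Both the number of Il2ra-positive cells and their content differed. In experiment 1, thinned cells with an Il2ra UMI were 38.5% to 55.2% of tags 1 to 4, with 3.68 to 4.44 UMIs per positive cell. In tags 5 to 8 they were 59.5% to 73.0%, with 6.56 to 7.68 UMIs per positive cell, so neither measure overlapped between the 2 sets. The sets were drawn by the Il2ra level itself, to which both measures contribute, so this split is no separate evidence for them. In experiment 2 the shares ran from 19.1% in tag 1 to 79.2% in tag 7, against a stromal-marker background of 14.4% (9.95% to 19.9%), an interval that holds the share of tag 1.

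Il7r, the interleukin-7 receptor alpha chain, followed Il2ra over the tags. Its lowest, median and highest tags had 7.65, 14.8 and 34.7 CPM in experiment 1 and 4.91, 15.2 and 45.5 CPM in experiment 2. In experiment 1, tags 5 to 8 (17.8 to 34.7 CPM) again lay above tags 1 to 4 (7.65 to 11.8 CPM). In experiment 2, tags 7 and 8 (45.5 and 44.9 CPM) stood 2.71-fold (2.42 to 3.03) above the next tag, and tags 1 and 2 (5.66 and 4.91 CPM) stood 2.47-fold (2.07 to 2.96) below tag 4. The ratios of highest to lowest were 4.54 (3.91 to 5.29) and 9.28 (7.77 to 11.2). Over the 16 tags the correlation of Il7r with Il2ra was 0.93, with 0.94 and 0.93 inside the experiments.

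The same cells tended to carry both transcripts. In experiment 1, 86.1% of the 987 thinned cells with an Il7r UMI also had Il2ra, against 51.0% of those without. For the 1010 such cells of experiment 2 it was 75.0% against 34.6%. The log2 odds ratio inside single tags was above 0 in all 8 tags of both experiments, with medians of 2.33 and 2.29. All cells in this count were thinned to the same total of UMIs.

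Il2rg, the shared gamma chain, was the most even of the 8. Its lowest, median and highest tags had 47.0, 48.7 and 68.3 CPM in experiment 1 and 31.8, 49.8 and 59.4 CPM in experiment 2. Tags 1 to 6 of experiment 1 lay between 47.0 and 50.4 CPM, and 6 of 7 neighbouring pairs were within counting error. The ratios were 1.45 (1.34 to 1.57) and 1.87 (1.73 to 2.02). In experiment 2, tags 1 and 2 (31.8 and 32.8 CPM) were set below the other 6 (44.6 to 59.4 CPM), and the same 2 tags were lowest for Il7r and Il2ra.

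Il2rb, the beta chain for interleukins 2 and 15, had the widest span among the 7 genes of 2 CPM or more, though its interval overlapped that of Flt3 in both experiments. Its lowest, median and highest tags had 1.34, 4.38 and 7.03 CPM in experiment 1 and 1.75, 5.92 and 25.7 CPM in experiment 2. The ratio was 5.26 (3.71 to 7.55) in experiment 1, and 3.06 without tag 2. In experiment 2 it was 14.7 (11.3 to 19.5), and 6.91 without tag 4. Tag 4 of experiment 2 had 25.7 CPM, ahead of 12.1 in tag 3 and 11.9 in tag 8. Of its thinned cells, 11.9% had an Il2rb UMI, against 0.999% to 5.23% in the other tags, while its positive cells had 2.14 UMIs on average, within the 1.56 to 2.60 of the others. The stromal-marker background for Il2rb was also 5 of 208 cells (0.785% to 5.52%). By share alone, those other 7 tags were not distinguishable from this background, while tag 4 lay above the interval. A share does not show which cells held the UMIs. Inside tags of experiment 2 with at least 20 such cells, Il2rb was 5.70 to 126 CPM in the NK or innate lymphoid marker class defined below. It was 0.410 to 3.28 CPM in cells of no class.

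Il18r1, the interleukin-18 receptor chain, had 3.13, 3.51 and 9.19 CPM in its lowest, median and highest tags of experiment 1 and 2.33, 4.58 and 9.64 CPM in experiment 2. Tags 7 and 8 of experiment 1 (9.19 and 7.52 CPM) were above the other 6 (3.13 to 4.75 CPM), and the ratio was 2.94 (2.21 to 3.96). In experiment 2, tags 4, 8 and 3 (9.64, 9.56 and 6.47 CPM) were above the other 5 (2.33 to 4.63 CPM), with a ratio of 4.14 (3.14 to 5.51). These 3 tags were also the highest for Il2rb. The correlation of Il18r1 with Il2rg was 0.91 over the 16 tags, and with Il2rb 0.85.

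Il1rl1, the interleukin-33 receptor, was the rarest, with 167 and 121 UMIs in all tagged cells. Its lowest, median and highest tags had 0.202, 0.590 and 2.39 CPM in experiment 1 and 0.0850, 0.436 and 1.05 CPM in experiment 2. The highest in experiment 1 were tags 7 and 8, as for Il18r1. The ratios rest on 6 and 2 UMIs in the lowest tags and are loose: 11.8 (5.08 to 33.6), with 6.81 without tag 3 and 7.85 without tag 7, and 12.4 (3.24 to 105.6), with 3.29 without tag 7 and 7.65 without tag 3. The share of thinned cells with an Il1rl1 UMI was 0.730% and 0.478%. The stromal-marker share in experiment 2 was 0.962%, from 2 of 208 cells (0.117% to 3.43%), an interval too wide to tell this signal from free RNA. Cells with stromal markers alone had 1.65 CPM of Il1rl1 (0.755 to 3.13), against 0.432 CPM (0.310 to 0.586) in cells of no marker class, defined below. They could therefore not serve as a background for this gene.

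The order of the tags was only partly beyond counting error. Of the 7 pairs of neighbours in rank, the number whose ratio could not be told from 1 in experiments 1 and 2 was 4 and 4 for Kit, 5 and 4 for Flt3, 3 and 5 for Il7r and 6 and 4 for Il2rg. It was 5 and 3 for Il2rb, 5 and 4 for Il18r1, and 6 and 7 for Il1rl1.

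Cells were next divided by Kit and Il2ra, the pair by which progenitors that have and have not begun to express CD25 are sorted. In experiment 1, 20.8% of thinned cells had Kit only, 26.6% had both, 28.7% had Il2ra only and 24.0% had neither. In experiment 2 the shares were 16.7%, 12.2%, 27.7% and 43.5%. A cell with no UMI may still express the gene, so these are shares of detection.

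**Figure D2:**
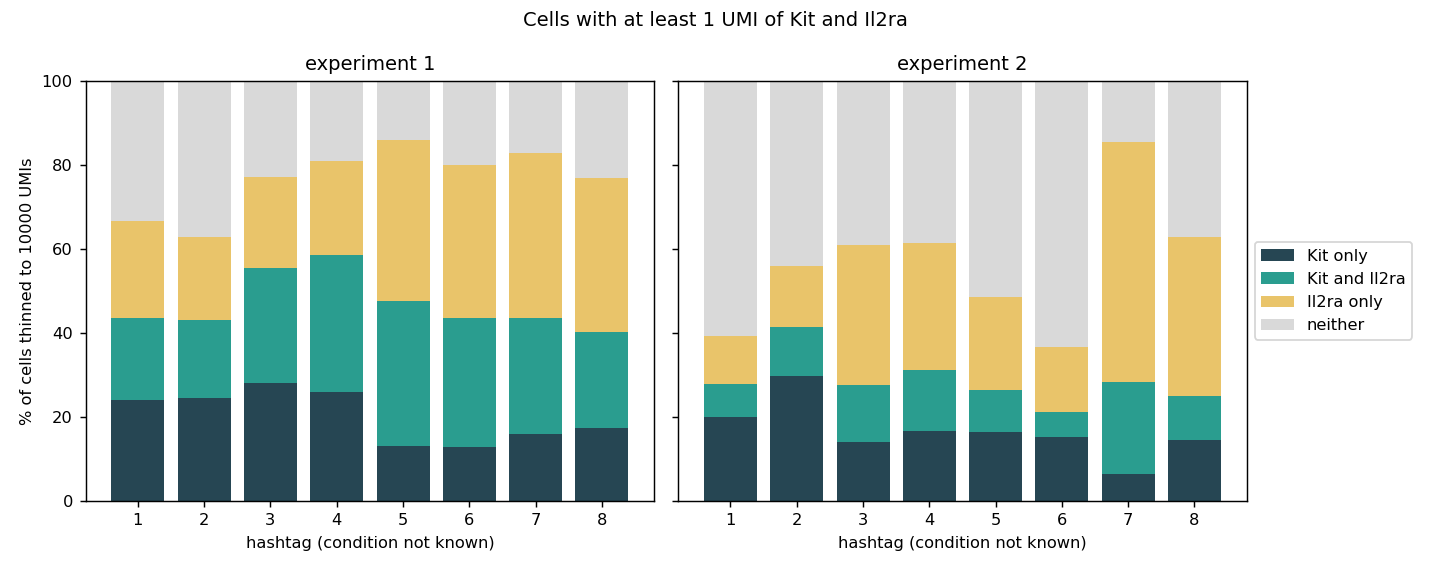
Share of cells (y axis, percent of cells thinned to 10000 UMIs) with at least 1 UMI of Kit only, of both Kit and Il2ra, of Il2ra only or of neither, stacked to 100% for each hashtag (x axis) of both experiments. Il2ra-only cells were 57.1% of tag 7 of experiment 2, and Kit-only cells were 29.7% of tag 2.

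Cells with Il2ra only made up 19.8% to 23.1% of tags 1 to 4 and 36.6% to 39.1% of tags 5 to 8 of experiment 1. Kit-only cells ran the other way, 24.1% to 28.0% against 12.8% to 17.3%. In experiment 2 tag 7 had the most Il2ra-only cells (57.1%) and the fewest Kit-only cells (6.30%), and tag 2 had the most Kit-only cells (29.7%). Cells with neither transcript were 60.8% and 63.4% of tags 1 and 6 of experiment 2. Flt3 was found mostly outside the Il2ra-positive cells: 4.85% of Kit-only cells had a Flt3 UMI in experiment 1, against 0.595% of cells with Kit and Il2ra. The shares in experiment 2 were 5.66% and 1.17%. Il2ra-only cells had 1.02% in both experiments. In both experiments more Flt3-positive cells had neither transcript than had Kit only, and the Flt3 share of cells with neither was also larger than that of Kit-only cells.

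Detection in the same cells was then set against genes that mark stages of the T-cell path. Flt3 was seen more often in cells with the stem and progenitor gene Cd34 and the progenitor regulator Lmo2, and less often in cells with the T-lineage regulators Tcf7 and Bcl11b. The median log2 odds ratio of Flt3 with Cd34 was 2.33 in experiment 1 and 2.01 in experiment 2, and with Lmo2 1.83 and 1.74, above 0 in all 8 tags of both. With Tcf7 it was -2.45 and -2.05, with Bcl11b -2.08 and -2.30 and with Il2ra -2.52 and -2.15, below 0 in all 8 tags of both. At 5000 UMIs per cell the values with Bcl11b were -0.68 and -0.95, below 0 in 5 tags of each experiment, and Flt3 and Bcl11b were then seen together in 2 cells of each. Of the 249 Flt3-positive thinned cells of experiment 1, 89.96% had Cd34 and 20.1% had Tcf7, against 59.8% and 62.7% of the other cells.

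Il2ra showed the opposite pattern. Its median log2 odds ratios were 3.97 and 3.83 with Bcl11b and 2.85 in both experiments with Tcf7, above 0 in all 8 tags of each. With Lmo2 they were -2.96 and -3.05, below 0 in all 8 tags of each. Il7r went the same way as Il2ra, with 1.69 and 2.25 for Bcl11b and -2.10 and -1.88 for Lmo2. Kit showed little preference: the medians were 0.06 and 0.21 with Il2ra and -0.17 and -0.04 with Bcl11b (0.07 and 0.24 at 5000 UMIs per cell). It was seen somewhat more often in cells with Gata3, a T-cell regulator (0.33 and 0.60), and with the granule gene Nkg7 (0.62 and 1.36). In experiment 1 the medians of Kit with Zbtb16 and Tcf7 were 0.67 and 0.39, above 0 in all 8 tags of each. At 5000 UMIs per cell the experiment 1 values were 0.46 with Gata3, 0.27 with Nkg7, 0.50 with Zbtb16 and 0.34 with Tcf7.

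**Figure D3:**
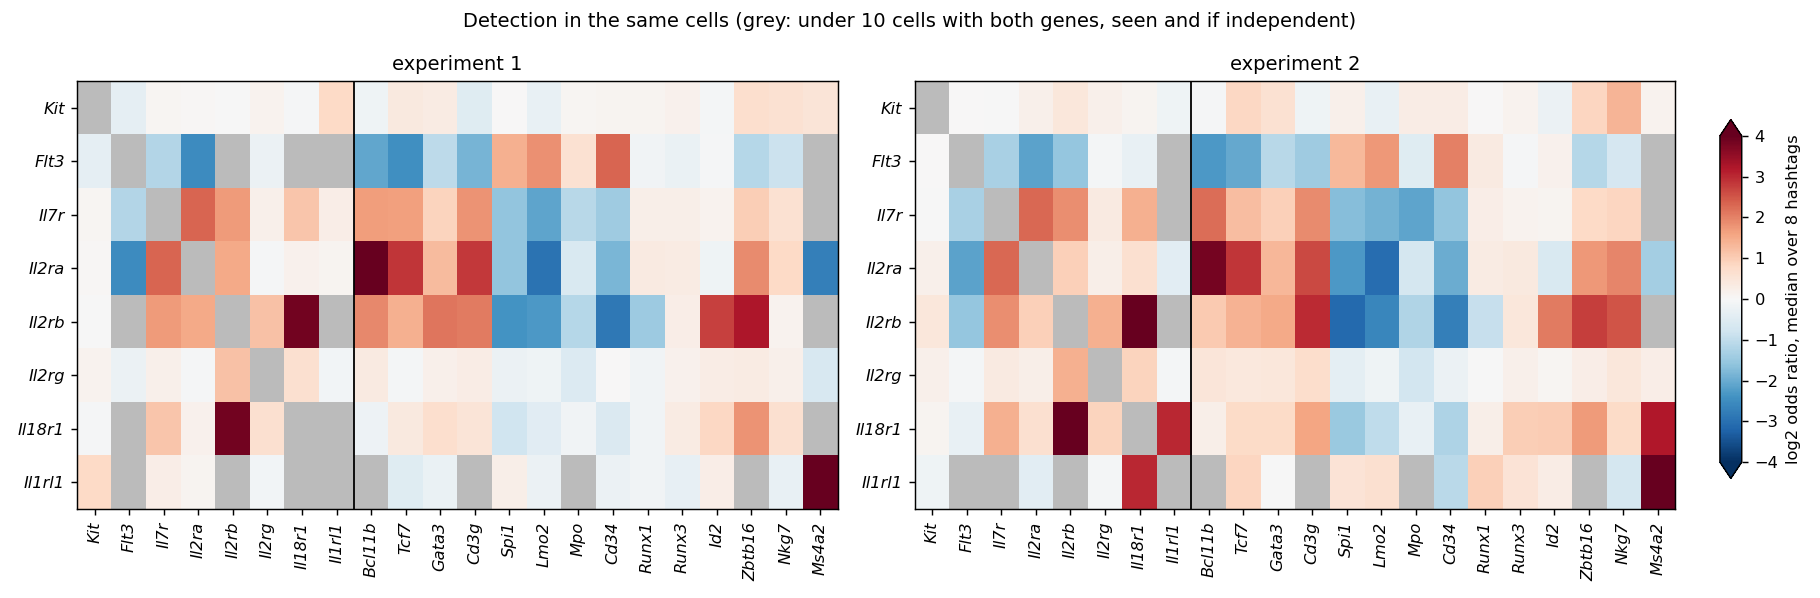
Colour gives the log2 odds ratio that 2 genes were seen in the same cell, as the median over the 8 hashtags of an experiment (red, more often than by independence, and blue, less often), for the receptors (rows) against each other and against 14 staging genes (columns). Grey squares are a gene with itself or pairs with under 10 joint cells both seen and expected. Flt3 and Il2ra rows have opposite signs for Bcl11b, Tcf7, Lmo2 and Cd34.

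Il2rb and Il18r1 were found in the same cells. In experiment 1, 67 of the 210 cells with an Il2rb UMI (31.9%) also had Il18r1, against 3.09% of the other cells. In experiment 2 it was 116 of 325 (35.7%) against 3.34%. The median log2 odds ratios were 3.85 and 4.24, above 0 in all 8 tags of both. Il2rb-positive cells were also richer in Id2, a regulator of innate lymphoid cells (64.8% and 61.5% of them, against 25.8% and 29.8% of other cells), and in the T-cell receptor complex gene Cd3g (28.6% and 61.2%, against 12.5% and 20.4%). The myeloid and progenitor regulator Spi1 was seen in 26.7% and 20.3% of them, against 69.5% and 67.2% of other cells. Zbtb16, which encodes the innate-like lymphocyte factor PLZF, gave medians of 3.22 and 2.77, above 0 in 8 and 7 tags.

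Il1rl1 went with Ms4a2, the mast cell and basophil gene for an IgE receptor chain. Of the 60 thinned cells with an Il1rl1 UMI in experiment 1, 13 (21.7%) had Ms4a2, against 0.355% of other cells. The second experiment gave 10 of 37 (27.0%) against 0.532%. Il18r1 and Il1rl1, neighbours on the chromosome, were seen together in 5 cells of experiment 1 and 12 cells of experiment 2.

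Cells were also assigned to classes by markers among which none of the 8 receptors stands: at least 3 markers of a class seen and at least 1000 CPM of marker UMIs. Such a class is a range of marker content and not a cell type. In experiment 1, 5424 of 8797 cells had no class and 558 had more than 1. The numbers were 3263 and 991 of 8335 in experiment 2. Marker content of the NK or innate lymphoid class came mostly from the granzyme gene Gzma (3016 and 3296 CPM in the class, 901 and 972 CPM in cells of no class). Its defining receptor Ncr1 was at 2.89 and 33.7 CPM. The number of cells within 20% of the threshold was 632 and 442 for that class.

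Il2rb was highest in the class with NK or innate lymphoid markers, at 23.2 CPM (21.0 to 25.5) in 708 cells of experiment 1 and 52.6 CPM (48.0 to 57.4) in 355 cells of experiment 2. Cells of no class had 1.37 CPM (1.18 to 1.58) and 1.54 CPM (1.30 to 1.81). Inside tags with at least 20 such cells the class had 4.69 to 104.7 and 5.70 to 126 CPM, while cells of no class had 0.444 to 3.64 and 0.410 to 3.28 CPM, so the ranges did not overlap. Cells with T-lineage markers had 5.37 and 9.25 CPM of Il2rb, a value that moved with the marker limit: 3.75 and 4.72 CPM at 500 CPM of markers, and 11.5 and 20.97 CPM at 2000. The class with granulocyte or monocyte markers had 2 UMIs in experiment 1 and 0 in experiment 2, which allows up to 0.161 CPM at 3 counts. Cells meeting more than 1 class had 10.4 CPM (8.81 to 12.2) and 35.9 CPM (33.8 to 38.1) of Il2rb. They held 149 and 1074 Il2rb UMIs, against 418 and 493 in the NK or innate lymphoid class.

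**Figure D4:**
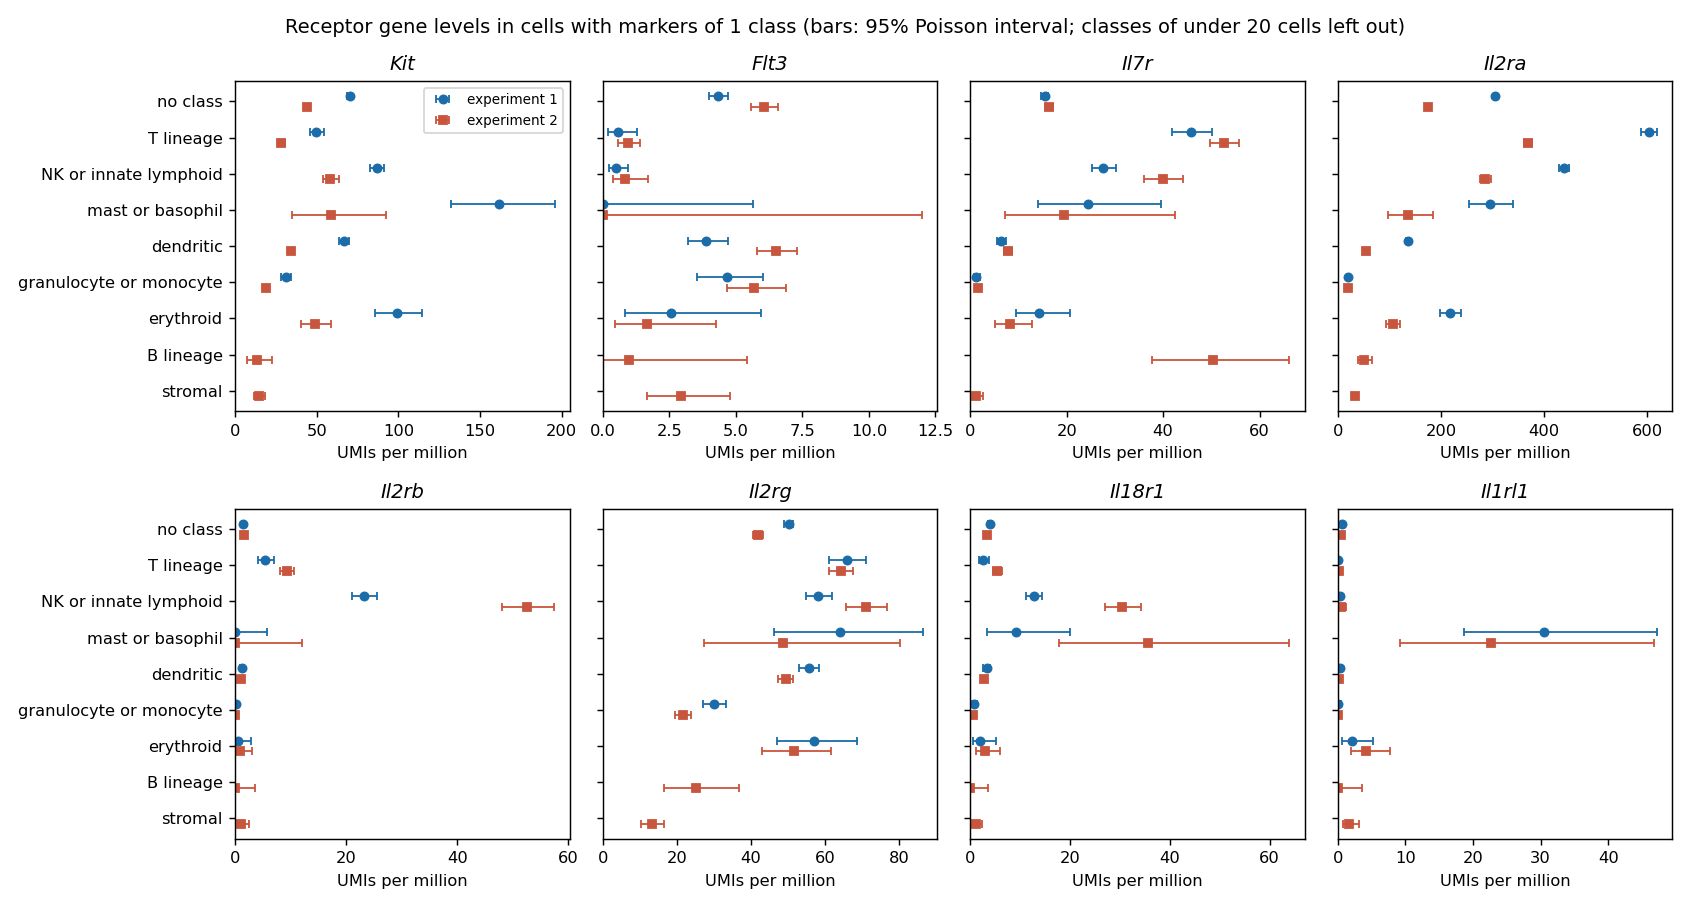
Level of each receptor gene in CPM (x axis, linear, from 0) in cells with markers of 1 class or of none (rows), with 95% Poisson intervals, for experiment 1 (blue circles) and experiment 2 (red squares). Classes of under 20 cells are left out. Il2rb peaked in the NK or innate lymphoid class, Il1rl1 in the mast or basophil class and Il2ra in the T-lineage class.

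Over tags, Il2rb and the summed NK and innate lymphoid markers did not always go together. In tag 4 of experiment 2, the highest for Il2rb, the summed NK and innate lymphoid markers reached 2467 CPM and the summed T-lineage markers 1640 CPM, the highest of its 8 tags, and 37.1% of its cells met more than 1 class. Tag 7 of experiment 2 had nearly as much of the NK and innate lymphoid markers (2344 CPM) with 3.87 CPM of Il2rb. In experiment 1 tag 8, the highest for Il2rb at 7.03 CPM, had 876 CPM of these markers, and tag 5, with 4.98 CPM of Il2rb, had the most (2222 CPM). When all cells meeting the NK or innate lymphoid limits were left out, an alternative chosen after seeing the data, Il2rb in tag 4 was 4.48 CPM against 0.881 to 2.97 CPM in the other 7 tags. The ratio of highest to lowest was then 5.08 in place of 14.7. Their part in the remaining difference was not tested.

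**Figure D5:**
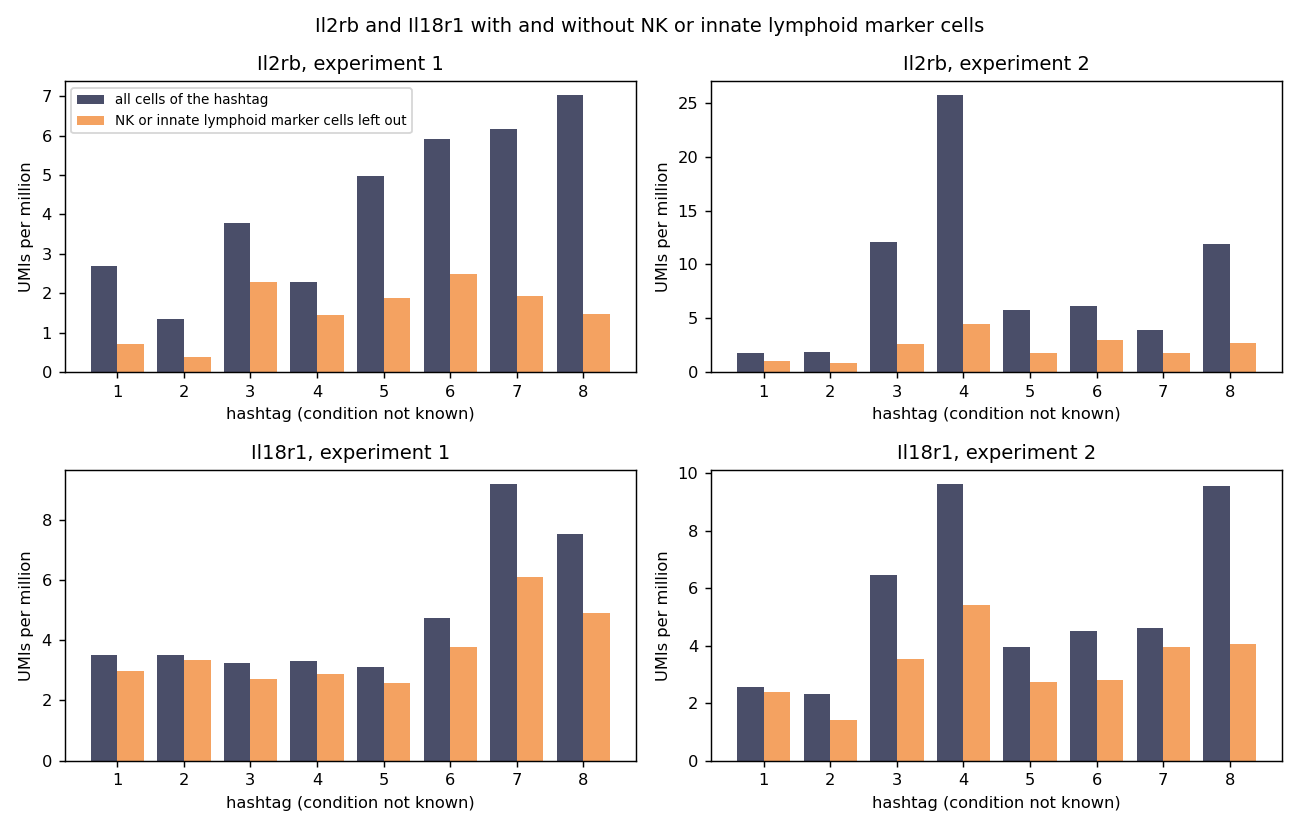
Il2rb and Il18r1 in CPM (y axis, from 0) in each hashtag (x axis) of both experiments, over all cells of the hashtag (dark bars) and without cells meeting the NK or innate lymphoid marker limits (orange bars). The level of Il2rb in tag 4 of experiment 2 was 25.7 CPM over all cells and 4.48 CPM without them.

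Il18r1 shared the NK or innate lymphoid class with Il2rb, at 12.7 and 30.5 CPM against 3.97 and 3.28 CPM in cells of no class. Without all cells meeting the NK or innate lymphoid limits, those of more than 1 class included, the level of Il18r1 in tag 4 of experiment 2 was 5.41 CPM in place of 9.64 CPM, still the highest there. In the small mast or basophil class, 31 and 21 cells, Il18r1 had 9.16 CPM (3.36 to 19.9) and 35.7 CPM (17.8 to 63.9). Il1rl1 in those cells had 30.5 CPM (18.6 to 47.1) from 20 UMIs and 22.7 CPM (9.14 to 46.8) from 7 UMIs, against 0.681 and 0.432 CPM in cells of no class. Kit was also highest in these cells in experiment 1, at 161.8 CPM (132.4 to 195.6) against 70.0 CPM (68.6 to 71.5) in cells of no class. In experiment 2 its 58.4 CPM (34.6 to 92.4) could not be set apart from the 43.7 CPM (42.4 to 45.0) of cells of no class. The makeup of this class moved with the marker limit. At 1000 CPM of markers it had 294.5 and 136.4 CPM of Il2ra. At 2000 CPM, in 19 and 18 cells, it had 6.86 and 9.15 CPM of Il2ra and 192.2 and 68.6 CPM of Kit.

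Il2ra and Il7r were high in cells with T-lineage markers. Il2ra had 603.7 CPM (588.7 to 618.9) and 368.0 CPM (360.3 to 375.8) there, against 305.1 and 174.9 CPM in cells of no class and 19.7 and 20.0 CPM in the granulocyte or monocyte class. Il7r had 45.9 and 52.6 CPM in the T-lineage class, 15.4 and 16.3 CPM in cells of no class and 1.29 and 1.55 CPM in the granulocyte or monocyte class. The 52 cells with B-lineage markers in experiment 2 had 50.4 CPM of Il7r (37.7 to 66.1) and 51.4 CPM of Il2ra (38.5 to 67.2). The 4 such cells of experiment 1 were too few for a level.

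Flt3 was low in the T-lineage class (0.585 and 0.934 CPM) and the NK or innate lymphoid class (0.4996 and 0.853 CPM). It was higher in cells of no class (4.32 and 6.06 CPM), in the class with dendritic markers (3.89 and 6.52 CPM) and in the granulocyte or monocyte class (4.66 and 5.68 CPM). The last depended on the marker limit. At 500 CPM of markers it had 7.22 and 7.08 CPM of Flt3, and at 2000 it had 2.31 and 3.01 CPM, below the 4.07 and 5.74 CPM of cells of no class at that limit. Kit was lower in the T-lineage class (49.8 and 28.2 CPM) than in cells of no class (70.0 and 43.7 CPM) and lower still in the granulocyte or monocyte class (30.9 and 18.8 CPM). Il2rg was spread over the classes: in the T-lineage, NK or innate lymphoid, dendritic and granulocyte or monocyte classes it had 66.1, 58.3, 55.7 and 30.1 CPM in experiment 1 and 64.3, 71.1, 49.4 and 21.7 CPM in experiment 2.

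The cultures differed in these classes. T-lineage marker cells were 1.67% to 11.96% of a tag in experiment 1 and 2.61% to 45.2% in experiment 2, where tag 7 had the most. Granulocyte or monocyte marker cells were 1.05% to 10.4% and 0.885% to 20.3%. Tag 7 was also the highest of experiment 2 for Il2ra and Il7r. In experiment 1 this pairing was partial. Tag 5 had the largest share of T-lineage marker cells and lay in the higher set for Il2ra (483.9 CPM) and Il7r (26.5 CPM). Tag 7, the highest there for both genes, had a share of 4.51%. Tags 4 and 3 came next to tag 5 by share (9.23% and 7.62%) and had the highest summed T-lineage markers (593 and 564 CPM). These tags had the least Il7r of the 8 tags (8.45 and 7.65 CPM), and both lay in the lower set for Il2ra. By summed markers the pairing was only partial in experiment 2 too. Tag 4 had the most there (1640 CPM, against 1451 CPM in tag 7), with less Il2ra and Il7r than tag 7. Leaving out cells of other lineages (stromal, B-lineage, granulocyte or monocyte, mast or basophil and erythroid markers) kept every receptor but Il1rl1 in experiment 2 within 1.5 times its main ratio. The part of the other differences in cell makeup was not tested.

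The genes most like each receptor over tags were taken from those with a mean of at least 20 CPM in both experiments, by the correlation over the 16 tags. For Kit they were Sox4 (0.96), Arid1a (0.95) and Ppfia1 (0.95), and for Flt3 Slc25a4 (0.94), Bcl11a (0.93) and Pou2f2 (0.91). Il7r and Il2ra had Tcrg-C2 (0.96 and 0.97), a T-cell receptor gamma constant gene, and Akr1c13 (0.96 and 0.97) in common. The third was Tcrg-C1 for Il7r (0.97) and Fam20a for Il2ra (0.96). Genes close to Il2rg included Ltb (0.92) and Sh3glb1 (0.89). Il2rb and Il18r1 had the same 3 genes, Ugcg (0.87 and 0.91), Il2rg (0.84 and 0.91) and Ap2m1 (0.82 and 0.91). For Il1rl1 the closest gene, Vmp1 (0.92), had 0.97 in experiment 1 and 0.74 in experiment 2, and the levels of Il1rl1 rest on few UMIs. These are the top values among about 4965 genes over 16 points that share 2 libraries, and describe likeness only.

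Of 54 other genes of the same pathways, listed with earlier results known, 27 had a mean of at least 20 CPM in experiment 1 and 24 in experiment 2. Of these, 8 and 10 spanned 2-fold or more over tags, beside the 6.47% and 11.2% of all genes at that level given above. The median spans of the listed genes were 1.51 and 1.78, against 1.25 and 1.30 for all genes. By role, in experiments 1 and 2, they were 2 of 4 and 4 of 6 receptors, 3 of 7 and 2 of 4 JAK kinases and STAT factors, 0 of 9 and 2 of 8 adaptors, and 3 of 7 and 2 of 6 target genes.

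Feedback inhibitors of cytokine signalling had the widest spans in experiment 1 among the listed genes of at least 20 CPM. Cish, a target of STAT5, ran from 5.59 to 61.1 CPM (10.9-fold), Socs2 from 13.4 to 107.3 CPM (8.03-fold) and Socs1 from 18.8 to 114.2 CPM (6.08-fold), each lowest in tag 3 and highest in tag 7 or 8. In experiment 2 Socs1 (7.07-fold) and Socs2 (7.43-fold) were again wide, both lowest in tag 2. Il21r, which pairs with Il2rg, spanned 4.76-fold and 5.90-fold. The STAT5 genes themselves were steadier, at 1.29-fold and 1.74-fold for Stat5a and 1.51-fold and 1.49-fold for Stat5b.

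None of 7 ligand genes reached a mean of 20 CPM. Kitl, the Kit ligand, had 0.0546 to 1.90 CPM in experiment 1 and 2.68 to 17.4 CPM in experiment 2. Its highest tag was tag 2, which also held the largest share of stromal-marker cells (3.12%) and the highest Kit level. Stromal-marker cells themselves had 14.5 CPM of Kit, and with cells of other lineages left out tag 2 had 65.4 CPM of Kit, again the highest of its experiment. Il18rap, the partner chain of Il18r1, spanned 5.42 to 14.2 CPM and 3.85 to 9.91 CPM, and Il1rap, the partner of Il1rl1, 2.39 to 5.03 and 1.70 to 2.97 CPM.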

How the data were processed

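The deposited mRNA matrices hold raw UMI counts per gene and barcode, which the authors made with Cell Ranger 3.0.0 on mm10 (GRCm38), per the submitters' processing notes; the libraries were 10x Chromium version 3, per the labels' protocols. The deposited tag tables hold raw counts for 8 hashtags. Barcodes were kept (9332 and 10214) if they had 500 genes or more and mitochondrial UMIs made up less than 10%, and a tag was called where the top tag had at least 50 counts and at least 3 times the second. Tagged cells were 94.3% and 81.6% of those kept. This rule removes doublets of different tags; doublets of 1 tag remain, and no doublet caller was run. UMIs were summed per tag and divided by the tag's total (CPM), with exact Poisson intervals and exact conditional intervals for ratios at 95%. The median depth per cell was 18057.5 to 29606 and 19543 to 31961 UMIs per tag. Detection was counted after thinning cells to 10000 UMIs, which left out shallower cells (8224 and 7746 stayed). Odds ratios had 0.5 added to each cell of the table. The planned comparisons treat tags as single cultures, so no test or p-value is given.

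Alternatives were HTODemux (Seurat 5.3.0) and tag ratios of 2 and 10, stricter and looser cell filters, edgeR 4.0.16 (TMM) and DESeq2 1.42.0 scaling, means over cells, thinning (10000 UMIs for ratios, 5000 for detection), class limits of 500 and 2000 CPM, and leaving out each tag. The ratio calculation was tested on simulated data. The 8 genes were taken by symbol, and the most alike genes by the 3 highest correlations. Some genes that these rules name are not reported here. The members, marker lists and pathway list were chosen with earlier results of these data known.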

Additional observations from a re-analysis of the deposited data

Results flagged for a closer look

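Of 16 sets of 8 tag levels (8 receptor genes in 2 experiments), 2 had an end value set apart from the rest by a gap, as a share of the range, above Dixon's 95% critical value. Chance flags about 1 in 20 sets of independent values from 1 normal distribution. Here the tags differ in cell makeup and the 8 genes share the same tags, so that rate may not hold.

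Kit in tag 2 of experiment 2 had 56.5 CPM, with 40.2 CPM next, a gap of 0.540 of the range. The level came from many cells: 684 of 1025 cells had a Kit UMI, and the 5 cells with the most held 2.62% of its Kit UMIs. Without those 5 cells it was 55.3 CPM.

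Il2rb in tag 4 of experiment 2 had 25.7 CPM, with 12.1 CPM next, a gap of 0.569 of the range. An Il2rb UMI was seen in 160 of 1170 cells, and the 5 cells with the most held 12.5% of the tag's Il2rb UMIs. Without them it was 22.7 CPM.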

How the results depend on the processing

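The count of receptor genes spanning 2-fold stayed within 1.5 times of 5 and 6 in the alternatives run. The count of pathway genes moved with the level limit: from 8 to 16 at a mean of 5 CPM and to 3 at 50 CPM in experiment 1, and from 10 to 19 and to 5 in experiment 2. The count of receptor genes lower in all tags of experiment 2 was 0, and 0 to 1 with single tags left out, the 1 being Kit. Of 192 receptor ratios under other settings, 9 moved over 1.5 times, all of Il2rb or Il1rl1. Il2rb was 9.22 without the 5% of cells with the most UMIs and 9.99 with thinning in experiment 1, and 9.77 with thinning in experiment 2. Il1rl1 in experiment 2 ran from 6.38 (mean over cells) to 23.3 (stricter cell filter). Of 128 ratios with a tag left out, 6 moved that far. At 5000 UMIs per cell the log2 odds ratios of Flt3 in experiment 2 changed sign with Gata3 (from -1.12 to 0.0933) and with Zbtb16 (from -1.15 to 0.229), and the cause was not tested. Kit with Bcl11b in experiment 1 went from -0.17 to 0.07, and Kit with Flt3 there from -0.36 to -0.06. With the marker limit of a class at 500 or 2000 CPM in place of 1000, 123 of 320 receptor levels in classes moved beyond their 95% interval, among them Il2rb in the T-lineage class and Flt3 in the granulocyte or monocyte class. The 32 shares of cells with a UMI, over all tags at 5000 UMIs or without thinning, all moved, so shares hold for 10000 UMIs per cell only. No paired analysis was possible because the tags carry no condition and no replicate number. Depth limits Il1rl1 and Flt3 most, and without known conditions no difference has a replicate check.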

Other observations

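Cells left without a tag held the same receptors at levels within or below those of the tags. Where 2 tags competed (496 and 1241 cells), Kit had 74.1 and 33.4 CPM, Il2ra 293.4 and 160.8 CPM, Il7r 17.2 and 20.7 CPM and Il2rb 4.46 and 10.1 CPM. Where no tag reached 50 counts (39 and 638 cells), Kit had 8.34 CPM (3.06 to 18.1) and 10.3 CPM (8.65 to 12.3), and Il2rg 4.17 CPM (0.860 to 12.2) and 18.1 CPM (15.8 to 20.6). In experiment 2 these 638 cells were below every tag for Kit, Il2ra and Il2rg, but not for Flt3 (5.17 CPM) or Il7r (9.56 CPM).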
